A study of Mus musculus with 6 samples.

Results

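The Wnt pathway was examined at the level of its ligands, receptors and secreted antagonists in mouse immortalized cardiosphere-derived cells (labelled iCDCs, and named iECDCs by the study for their epicardial origin), before and after cardiac induction with 5-azacytidine, an inhibitor of DNA methylation. Members were all protein-coding genes named Wnt, Fzd, Sfrp, Dkk or Rspo with a family number, together with Lrp5, Lrp6, Ror1, Ror2, Wif1, Axin2, Lgr4, Lgr5, Tcf7 and Lef1. The rule found 51 genes among the 54532 of the deposited table. RNA was sequenced from 3 control and 3 induced samples of C57BL/6 iCDCs at passage 30, a line labelled as heart ventricle. Per the methods of the study, the cells grew out of epicardial fragments of adult mice and received human telomerase by lentivirus with puromycin selection, so every sample carried the transgene. Control cells were iCDCs at passage 30 with no drug named. Induced cells received 10 µM 5-azacytidine for 3 days and were then kept in IMDM with 2% serum for 4 weeks by their labels, whereas the methods give another medium and a shorter culture. The line was routinely grown in a serum-rich explant medium, how the sequenced control samples were kept before harvest is not given, and drug, serum and culture time cannot be told apart. All 6 samples came from 1 line, and p-values measure only the spread between samples of that line.

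Wnt proteins are secreted lipid-modified ligands that bind Frizzled receptors. With the co-receptors Lrp5 and Lrp6 they stabilise β-catenin, which then acts with Tcf and Lef proteins on target genes. Some ligands instead use Ror1 and Ror2 to steer cell polarity and movement. Sfrp proteins and Wif1 trap ligands, Dkk proteins act mainly on the co-receptors, and R-spondins strengthen the signal by protecting Frizzled from removal. In the heart the pathway is known for its changing roles in mesoderm, epicardium and fibroblasts.

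Of the 51 members, 34 had enough reads to be tested, and 17 did not. At an adjusted p of 0.05 (quasi-likelihood test of edgeR, Benjamini-Hochberg over all 14246 tested genes), 27 members were called, 17 higher and 10 lower in induced cells. Of all tested genes, 64.8% were called, 32.6% higher and 32.2% lower. Changes of 2-fold or more were called in 10 members that rose and 5 that fell, beside 9.29% and 7.83% of all tested genes. On the scale of counts adjusted for library size, the groups did not overlap for 27 of the 34 members and for 68.6% of all tested genes. Lef1, Wnt6, Wnt10a and Wnt11 passed the filter on low counts only through the induced samples, so a difference was built into their testing. Among the 30 members that passed through both groups, 13 were higher and 10 lower (76.7%). At least 2-fold changes were called in 6 that rose and 5 that fell, and the groups did not overlap for 23 of the 30. The median log2 fold change was 0.20 over the 34 members, 0.08 over these 30 and -0.01 over all tested genes.

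Members of one family moved in opposite directions. Rspo1, Wnt9a, Fzd4 and the feedback gene Axin2 rose, whereas Wnt4, Wnt16, Ror2, Tcf7 and Sfrp1 fell. In the plot of changes by class, the R-spondin class was called in the higher direction only, and the other classes held calls of both signs.

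**Figure D1:**
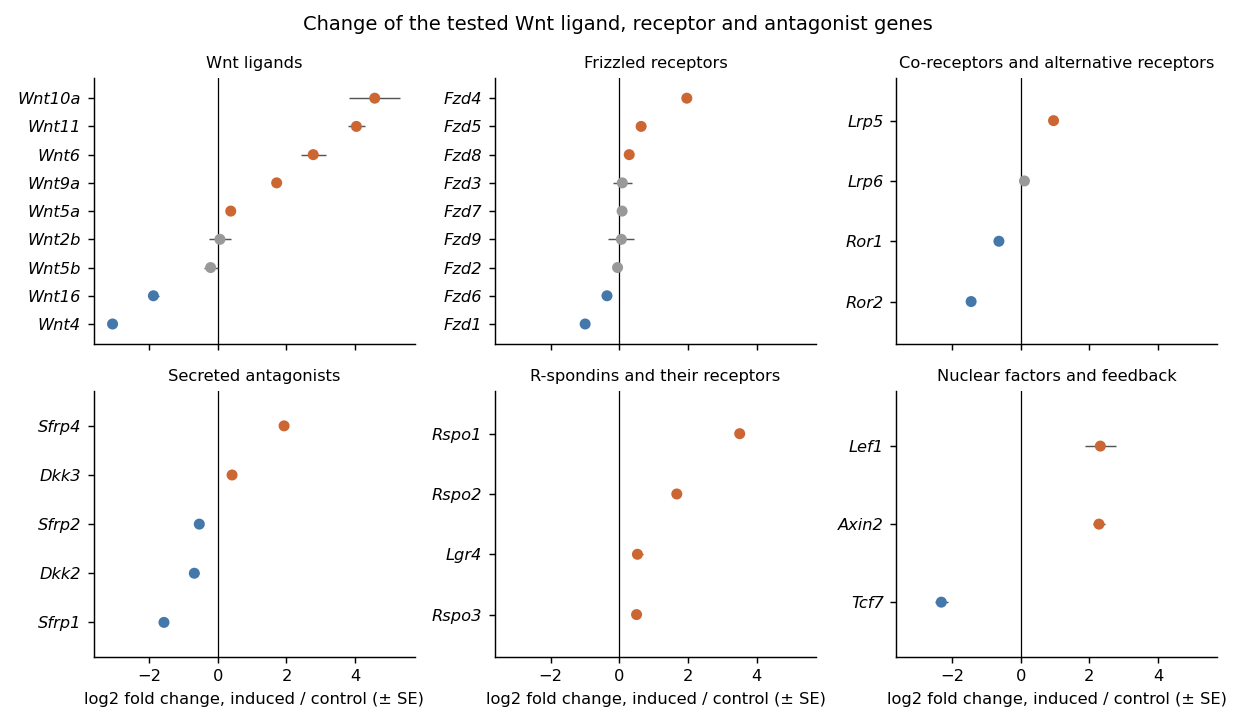
Log2 fold change (induced over control, horizontal axis, ± SE) of the 34 tested members in 6 classes. Orange points were called higher and blue points lower at an adjusted p of 0.05, and grey points were not called. Wnt10a, tested only through its induced samples, lies highest at 4.57 and Wnt4 lowest at -3.07.

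Because 5-azacytidine traps the enzymes that methylate CpG sites, so that methylation is lost as cells divide, promoter sequences are shown for members with large changes in each direction. They were copied from RefSeq (GRCm38.p6), which held a promoter for 34 of the 51 members. Each stretch runs 5′ to 3′ along the gene's strand and ends just before the earliest annotated start in the window, and capitals mark CpG dinucleotides. The first 3 genes rose and the last 3 fell.
Rspo1, chr4:124986180-124986429, plus strand: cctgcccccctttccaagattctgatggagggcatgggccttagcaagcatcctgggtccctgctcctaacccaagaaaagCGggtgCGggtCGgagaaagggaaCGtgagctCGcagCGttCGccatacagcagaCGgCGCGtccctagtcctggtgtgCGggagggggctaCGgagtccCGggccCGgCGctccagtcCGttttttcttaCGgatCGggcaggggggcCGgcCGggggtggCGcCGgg
Wnt9a, chr11:59306680-59306927, plus strand: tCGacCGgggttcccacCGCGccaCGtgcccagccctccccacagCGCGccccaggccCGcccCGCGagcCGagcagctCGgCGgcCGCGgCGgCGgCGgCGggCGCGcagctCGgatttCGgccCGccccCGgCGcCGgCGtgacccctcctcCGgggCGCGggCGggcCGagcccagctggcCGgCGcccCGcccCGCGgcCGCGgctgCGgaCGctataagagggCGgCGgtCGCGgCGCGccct
Axin2, chr11:108920099-108920348, plus strand: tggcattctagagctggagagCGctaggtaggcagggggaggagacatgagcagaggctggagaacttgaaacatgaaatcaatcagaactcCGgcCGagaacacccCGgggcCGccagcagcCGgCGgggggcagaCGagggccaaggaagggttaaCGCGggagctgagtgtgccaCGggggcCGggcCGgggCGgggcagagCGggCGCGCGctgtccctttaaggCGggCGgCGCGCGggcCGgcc
Wnt4, chr4:137277385-137277488, plus strand: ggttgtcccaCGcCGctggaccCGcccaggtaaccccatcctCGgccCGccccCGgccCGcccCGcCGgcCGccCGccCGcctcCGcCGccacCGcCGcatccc
Ror2, chr13:53286125-53286374, minus strand: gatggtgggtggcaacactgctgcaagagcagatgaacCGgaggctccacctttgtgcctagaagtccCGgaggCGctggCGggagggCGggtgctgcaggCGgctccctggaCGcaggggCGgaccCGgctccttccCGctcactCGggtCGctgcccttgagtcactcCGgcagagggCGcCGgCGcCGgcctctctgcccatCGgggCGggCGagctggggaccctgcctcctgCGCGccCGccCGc
Wnt16, chr6:22287977-22288226, plus strand: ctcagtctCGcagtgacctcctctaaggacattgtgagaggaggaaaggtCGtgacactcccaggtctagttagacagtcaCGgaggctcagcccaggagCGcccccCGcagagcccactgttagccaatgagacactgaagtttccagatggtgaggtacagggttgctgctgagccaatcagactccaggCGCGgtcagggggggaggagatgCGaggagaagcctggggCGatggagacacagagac

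The 250-base stretch of Wnt16 held 9 CpG sites, and those of Ror2 and Axin2 held 24 each. The Wnt9a stretch of 248 bases held 48. Over the full 300-base window (250 bases before to 50 after the first listed start), the median was 31 CpG sites for the 9 members called higher that had a promoter, 19 for the 8 called lower and 45 for the 4 not called. It was 31 for all 21 tested members with a promoter and 21 for 10323 tested genes, so the members called higher had the median of the tested members. For all tested genes called at least 2-fold higher it was 12, and for those called at least 2-fold lower it was 19. The members were split by call without a fold threshold. The ranges overlapped, from 18 to 58 sites for members called higher and from 10 to 51 for those called lower. The TCF/LEF letters CTTTG followed by a pair of letters that are each A or T, searched on both strands, occurred in the window of 2 of 21 tested members (9.52%) and of 11.0% of tested genes. The Axin2 window held no match. These counts describe letters only, and methylation was not measured in these samples.

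Among the 19 Wnt ligands, 9 were tested, of which 5 were higher and 2 lower. Of the 5, Wnt6, Wnt10a and Wnt11 could be tested only through the induced samples, and among the 6 ligands that passed through both groups 2 were higher and 2 lower, which is 66.7% beside 64.8% of all tested genes. Levels below are FPKM, the deposited read count scaled to gene length and sequencing depth, which allows genes to be compared with one another. Wnt9a (ENSMUSG00000000126, chromosome 11, 59306928 to 59333552), a ligand known from joint and cartilage formation, had 4.57, 4.04 and 4.78 FPKM in the 3 control samples. In the induced samples it had 16.1, 14.2 and 14.0 FPKM. Every induced value was above every control value, and the log2 fold change was 1.71 (SE 0.08, adjusted p by edgeR 1.41e-12).

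Wnt4 (ENSMUSG00000036856, chromosome 4, 137277489 to 137299726), a ligand required for kidney tubule and female gonad formation, had 4.50, 5.30 and 4.87 FPKM in control samples. It had 0.659, 0.512 and 0.587 FPKM in induced samples, an 8.40-fold lower level in the fit (log2 fold change -3.07, SE 0.13, adjusted p by edgeR 2.86e-13). Wnt4 thus showed the largest fall among tested members, with no overlap between groups. Wnt16 (ENSMUSG00000029671, chromosome 6, 22288227 to 22298522), known for its part in cortical bone, had 2.12, 2.30 and 2.25 FPKM in control and 0.633, 0.709 and 0.480 FPKM in induced samples (log2 fold change -1.88, SE 0.15, adjusted p by edgeR 4.59e-09). Wnt4 and Wnt16 were the only ligands called lower.

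Wnt5a, the main ligand of the polarity branch, had 6.80, 6.25 and 6.36 FPKM in control and 8.57, 8.78 and 8.03 FPKM in induced samples. The groups did not overlap, but the change was small (log2 fold change 0.38, SE 0.06, adjusted p by edgeR 1.33e-05). Wnt5b, its close relative, had a log2 fold change of -0.21 with a 95% interval of -0.64 to 0.22 (adjusted p by edgeR 0.376), and Wnt2b one of 0.06 with an interval of -0.61 to 0.73 (adjusted p by edgeR 0.879). The interval of Wnt5b does not reach a rise as large as that of Wnt5a, and that of Wnt2b does.

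The other ligands called higher were scarce in control cells and were tested only through the induced samples. Wnt11 (ENSMUSG00000015957, chromosome 7, 98835112 to 98855195), a ligand known from heart morphogenesis, had 0.0849, 0.122 and 0.156 FPKM in control and 2.49, 1.65 and 1.95 FPKM in induced samples (log2 fold change 4.04, SE 0.25, adjusted p by edgeR 8.75e-11). Wnt6, a ligand of epithelia, had 11, 4 and 7 reads in control and 52, 35 and 60 reads in induced samples (log2 fold change 2.78, SE 0.36, adjusted p by edgeR 2.17e-06). Wnt10a, known from teeth and skin appendages, had 2 reads in all control samples together and 24, 11 and 19 in the induced samples. The ratio of its pooled reads was 28.1, with a 95% exact binomial interval of 7.42 to 238, which covers counting error only (adjusted p by edgeR 2.65e-05). Both control reads of Wnt10a came from replicate 2, and without that sample its fitted log2 fold change moved from 4.57 to 7.21. For Wnt11, 8.80% of the exon bases overlap another gene, and the strand setting of the counting is not stated.

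These changes altered the order of the ligands. In control cells the order by mean FPKM was Wnt5a (6.47 ± 0.295, SD, n = 3), Wnt4 (4.89 ± 0.398), Wnt9a (4.46 ± 0.381) and Wnt16 (2.22 ± 0.0927), and the values of Wnt4 and Wnt9a overlapped. In induced cells it was Wnt9a (14.8 ± 1.17), Wnt5a (8.46 ± 0.388), Wnt11 (2.03 ± 0.427) and Wnt6 (1.18 ± 0.307), with no overlap among the first 4 except that Wnt6 overlapped Wnt5b below it. Wnt4 fell from rank 2 to rank 7 of the ligands, and its share of the summed ligand FPKM from 24.7% ± 2.12 to 1.99% ± 0.140 (SD, n = 3). In induced cells the values of Wnt4 overlapped those of Wnt16 at rank 6 and Wnt10a at rank 8. The summed FPKM of the 19 ligands was 19.6 to 19.9 in control samples and 28.0 to 31.7 in induced samples, a ratio of means of 1.48.

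**Figure D2:**
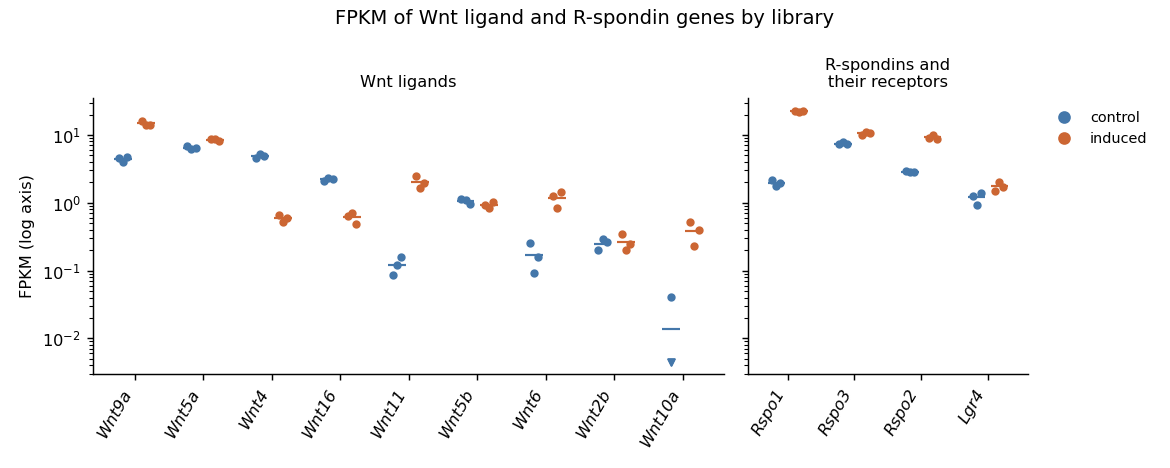
FPKM (vertical log axis) of the tested Wnt ligands, R-spondins and Lgr4 in each of 3 control (blue) and 3 induced (orange) samples. Horizontal bars are group means, and the triangle stands for the samples in which Wnt10a had 0 reads. Wnt4 and Wnt16 lie lower in induced samples, while Wnt9a, Wnt11, Wnt6 and Rspo1 lie higher with no overlap.

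The other 10 ligands were not tested. Wnt3, Wnt3a, Wnt8a, Wnt8b and Wnt9b had 0 reads in all 6 samples, where a count of 0 in 1 sample allows up to 0.151 to 0.158 CPM (read counts scaled to library size by TMM), taking 3 counts as the limit. Wnt1, Wnt2 and Wnt7b had 0 reads in control and 2, 4 and 5 in induced samples. Wnt10b had 8 and 6 reads, and Wnt7a had 13 and 11. A difference was not detectable for these genes at this depth.

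As a ratio of summed FPKM, the R-spondin class had the largest change of the 6 classes, whereas in FPKM units the secreted antagonists changed more. All 4 tested members of the R-spondin class were higher, beside 32.6% of all tested genes. Lgr5 and Rspo4, with 2 and 1 reads in all, were not tested. Rspo1 (ENSMUSG00000028871, chromosome 4, 124986430 to 125009099), an R-spondin required for ovary formation, had 2.18, 1.74 and 1.95 FPKM in control and 22.9, 21.9 and 22.6 FPKM in induced samples. It was 11.4-fold higher (log2 fold change 3.51, SE 0.09, adjusted p by edgeR 6.34e-16), and the lowest induced value was far above the highest control value.

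Rspo2 (ENSMUSG00000051920, chromosome 15, 43020794 to 43170826), known from limb and lung development, had 2.95, 2.87 and 2.81 FPKM in control and 8.98, 10.1 and 8.75 FPKM in induced samples (log2 fold change 1.68, SE 0.08, adjusted p by edgeR 7.66e-13). It rose although the median log2 fold change of the 561 tested genes of chromosome 15 was -0.24. Rspo3, an R-spondin of vessel and placenta formation, had 7.34, 7.78 and 7.26 FPKM in control and 9.93, 11.2 and 10.8 FPKM in induced samples (log2 fold change 0.50, SE 0.07, adjusted p by edgeR 7.44e-06), and 13.1% of its exonic sequence is shared with another gene. Rspo3 led the R-spondins in control cells and Rspo1 in induced cells, where the values of Rspo3 and Rspo2 overlapped. Lgr4, a receptor for R-spondins, was at 7.11 ± 1.40 CPM in control cells and at 10.3 ± 1.69 CPM after induction (SD, n = 3; log2 fold change 0.53, adjusted p by edgeR 0.00504). The summed FPKM of the class was 13.3 to 13.7 in control samples and 43.3 to 45.3 in induced samples, a ratio of means of 3.27.

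The Frizzled receptors changed less in sum than in composition. Of 10 receptors, 9 were tested, 3 were higher and 2 lower (55.6%, beside 64.8% of all tested genes), and Fzd10 had 0 reads. Their summed FPKM was 132 to 142 in control samples and 117 to 129 in induced samples, a ratio of means of 0.902. Fzd4 (ENSMUSG00000049791, chromosome 7, 89404355 to 89413134), the receptor for Norrin in retinal vessels, had 3.24, 3.01 and 2.97 FPKM in control and 12.1, 12.4 and 11.9 FPKM in induced samples. It was 3.91-fold higher (log2 fold change 1.97, SE 0.06, adjusted p by edgeR 2.42e-15) and was the only Frizzled gene to change at least 2-fold.

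Fzd1 (ENSMUSG00000044674, chromosome 5, 4753839 to 4758035), the most abundant receptor of control cells, had 53.0, 48.0 and 48.7 FPKM there and 25.7, 26.9 and 23.1 FPKM in induced samples. Its fall was 1.99-fold, just short of the 2-fold line (log2 fold change -0.996, SE 0.06, adjusted p by edgeR 5.76e-11). Fzd2 had 32.3, 30.4 and 32.0 FPKM in control and 30.9, 31.8 and 29.4 FPKM in induced samples, and the groups overlapped. Its log2 fold change of -0.05 had a 95% interval of -0.16 to 0.06 (adjusted p by edgeR 0.409). That of Fzd7, another receptor of the same subfamily, was 0.08 with an interval of -0.05 to 0.21 (adjusted p by edgeR 0.259). For the scarce Fzd3 and Fzd9 the intervals were wide, -0.50 to 0.67 and -0.73 to 0.85.

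Fzd5 and Fzd8, close relatives in sequence, had log2 fold changes of 0.64 and 0.29 (adjusted p by edgeR 3.29e-06 and 0.000242), and 17.8% of the exon bases of Fzd5 overlap another gene. Fzd6 fell by 0.36 on the log2 scale (adjusted p by edgeR 2.02e-05) and lies on chromosome 15, whose median was -0.24. In order of mean FPKM, control cells had Fzd1, Fzd2, Fzd7, Fzd6 and Fzd8, with no overlap between neighbours. Induced cells had Fzd2, Fzd1, Fzd7, Fzd8 and Fzd4, where the values of Fzd1 and Fzd7 overlapped. The share of Fzd1 in the summed Frizzled FPKM was 36.7% ± 0.634 in control and 20.5% ± 0.728 in induced cells, and that of Fzd4 was 2.26% ± 0.0457 and 9.89% ± 0.264 (SD, n = 3).

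Of the co-receptors of the β-catenin branch Lrp5 rose and Lrp6 was not called, and Ror1 and Ror2 of the polarity branch fell. Ryk and Ptk7, receptors of that branch outside the rule, were not called (log2 fold changes 0.09 and -0.11, adjusted p by edgeR 0.121 and 0.0521). Lrp5 (ENSMUSG00000024913, chromosome 19, 3584828 to 3686564) had 9.98, 10.1 and 10.8 FPKM in control and 21.2, 19.3 and 19.8 FPKM in induced samples, 1.94-fold higher (log2 fold change 0.96, SE 0.05, adjusted p by edgeR 1.60e-11). Lrp6, its partner in function, had 8.95, 9.21 and 9.26 FPKM in control and 9.30, 10.7 and 9.78 FPKM in induced samples. These values did not quite overlap, those on the CPM scale did, and the test was not passed (log2 fold change 0.11, 95% interval -0.01 to 0.23, adjusted p by edgeR 0.0972).

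Ror2 (ENSMUSG00000021464, chromosome 13, 53109312 to 53286124), a receptor tyrosine kinase for Wnt5a, had 4.76, 4.86 and 4.55 FPKM in control and 1.69, 1.98 and 1.57 FPKM in induced samples (log2 fold change -1.45, SE 0.10, adjusted p by edgeR 6.29e-10). Ror1 fell with it, by 0.64 on the log2 scale (SE 0.08, adjusted p by edgeR 1.21e-06). In control cells the FPKM values of the pair overlapped, and in induced cells those of Ror1 (2.78 to 3.14) were all above those of Ror2 (1.57 to 1.98).

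**Figure D3:**
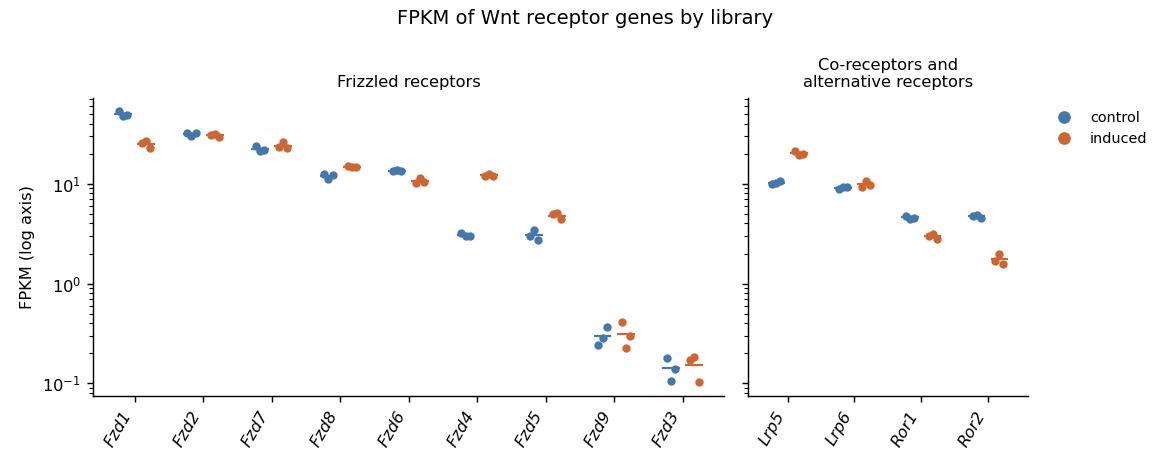
FPKM (vertical log axis) of the tested Frizzled, Lrp and Ror genes in each of 3 control (blue) and 3 induced (orange) samples, with group means as bars. Fzd4 and Lrp5 lie higher and Fzd1, Ror1 and Ror2 lower in induced samples, while Fzd2, Fzd7, Fzd9 and Fzd3 overlap.

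The secreted antagonists held the most abundant member. Sfrp1 (ENSMUSG00000031548, chromosome 8, 23411502 to 23449632), a secreted Frizzled-related protein that binds Wnt ligands, had 223, 214 and 217 FPKM in control samples. It had 72.6, 73.1 and 76.3 FPKM in induced samples, 2.97-fold lower (log2 fold change -1.57, SE 0.04, adjusted p by edgeR 1.05e-15). Its level still exceeded that of every other member in induced cells. Sfrp2, a relative with the same kind of Frizzled-like domain, had 56.6, 53.5 and 57.4 FPKM in control and 38.1, 40.6 and 37.4 FPKM in induced samples (log2 fold change -0.54, SE 0.05, adjusted p by edgeR 6.29e-08), and 16.1% of the exonic sequence is shared with another gene.

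Sfrp4 (ENSMUSG00000021319, chromosome 13, 19623104 to 19632994) moved the other way, from 1.29, 1.63 and 1.83 FPKM in control to 6.53, 5.73 and 5.98 FPKM in induced samples (log2 fold change 1.93, SE 0.11, adjusted p by edgeR 3.17e-11). Dkk3, a divergent Dickkopf protein, rose by 0.41 on the log2 scale (adjusted p by edgeR 2.77e-06). Dkk2, a Dickkopf protein that binds the Lrp co-receptors, fell by 0.69 (adjusted p by edgeR 0.000337). Dkk1 had 25 reads in control and 14 in induced samples and was not tested, Sfrp5 had 1 read in each group, and Dkk4 and Wif1 had 0 reads.

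The summed FPKM of the 9 antagonists was 291 to 305 in control samples and 146 to 149 in induced samples, a ratio of means of 0.496. Sfrp1 made up 73.1% ± 0.614 of that sum in control and 49.99% ± 1.10 in induced cells (SD, n = 3). The share of Dkk3 was 6.98% ± 0.251 and 18.9% ± 0.187. The sum thus followed Sfrp1, as the stacked plot shows, and the smaller rises of Sfrp4 and Dkk3 did not make up the difference.

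**Figure D4:**
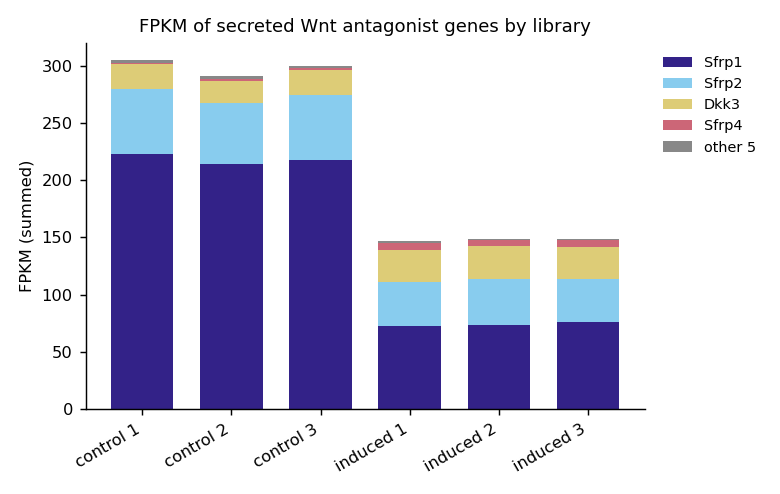
Summed FPKM (vertical axis, from 0) of the 9 secreted antagonist genes in each sample, stacked by gene. The 3 control samples reach 291 to 305 and the 3 induced samples 146 to 149, and the dark bars of Sfrp1 carry most of the difference.

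Axin2, Tcf7 and Lef1 act at the downstream end of the β-catenin branch. Axin2 (ENSMUSG00000000142, chromosome 11, 108920349 to 108950783), a scaffold of β-catenin degradation that the pathway itself switches on, had 41, 35 and 61 reads in control and 208, 220 and 212 in induced samples. In FPKM it had 0.374, 0.320 and 0.551 in control and 2.01, 2.09 and 2.02 in induced samples, 4.86-fold higher (log2 fold change 2.28, SE 0.16, adjusted p by edgeR 7.45e-10). Tcf7 (ENSMUSG00000000782, chromosome 11, 52252371 to 52283014), a DNA-binding partner of β-catenin, had 154, 163 and 146 reads in control and 21, 30 and 38 in induced samples. It was 4.98-fold lower (log2 fold change -2.32, SE 0.19, adjusted p by edgeR 4.59e-09).

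Lef1, a relative of Tcf7 and also a target of the pathway, had 3, 7 and 2 reads in control and 18, 23 and 18 in induced samples (log2 fold change 2.32, SE 0.46, adjusted p by edgeR 0.000236). Without control replicate 2 its value was 2.98, and 13.7% of the exonic sequence is shared with another gene. Lef1 remained scarce at 0.118 ± 0.0169 FPKM (SD, n = 3) in induced cells, below Tcf7 at 0.594 ± 0.167. Their relatives outside the rule differed again. Tcf7l1, mainly a repressor, had 12.1 to 12.6 FPKM in control and 11.8 to 12.4 FPKM in induced samples (log2 fold change -0.04, 95% interval -0.15 to 0.07, adjusted p by edgeR 0.525). Tcf7l2 rose by 0.45 on the log2 scale (adjusted p by edgeR 0.000738).

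Other genes of the pathway were taken from 6 lists of textbook roles. Of 95 genes, 81 were tested, 28 were higher and 25 lower, and their median log2 fold change was 0.04. The share called was 65.4%, about that of all tested genes (64.8%). Among the 78 that passed the filter through both groups, 26 were higher and 24 lower (64.1%). Of 19 feedback and target genes, 13 were tested, 5 were higher and 6 lower (84.6%), with a median of 0.03. Apcdd1, a membrane inhibitor, had 2.01, 1.87 and 1.99 FPKM in control and 9.70, 9.89 and 9.49 FPKM in induced samples (log2 fold change 2.30, adjusted p by edgeR 1.67e-13). Myc, a growth regulator on chromosome 15, had 31.9, 32.7 and 31.0 FPKM in control and 9.83, 10.1 and 10.8 FPKM in induced samples (log2 fold change -1.65, adjusted p by edgeR 2.17e-14). The adhesion receptor Cd44 had a log2 fold change of -1.52 (adjusted p by edgeR 4.23e-13).

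The list held calls of both signs. Wisp1, Wisp2 and Msx1 had log2 fold changes of 0.64, 1.06 and 0.38 (adjusted p by edgeR 2.81e-08, 1.57e-11 and 0.00339). Tnfrsf19, with a value of 3.28 (adjusted p by edgeR 1.06e-06), passed the filter on low counts only through the induced samples. Notum, with a value of -1.01 (adjusted p by edgeR 0.0308), passed only through the control samples, and 38.1% of its exonic sequence is shared with another gene. The feedback inhibitors Nkd1 and Nkd2 fell, by 0.51 and 1.37 on the log2 scale (adjusted p by edgeR 1.50e-06 and 1.51e-12), and Ccnd1, which encodes cyclin D1, fell by 0.58 (adjusted p by edgeR 4.25e-08), though 23.4% of its exonic sequence is shared with another gene. Znrf3, the ligase that removes Frizzled and is held back by R-spondins, had a log2 fold change of 0.22 with a 95% interval of -0.08 to 0.53 (adjusted p by edgeR 0.191). Its relative Rnf43 had 0 reads in control and 15 in induced samples and was not tested. The pooled induced reads of Rnf43 were 5.21-fold those of 3 counts summed over the control group, a ratio that leaves out counting error in the induced reads. Several of these genes also answer to other pathways, and the part of β-catenin in their levels was not tested.

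**Figure D5:**
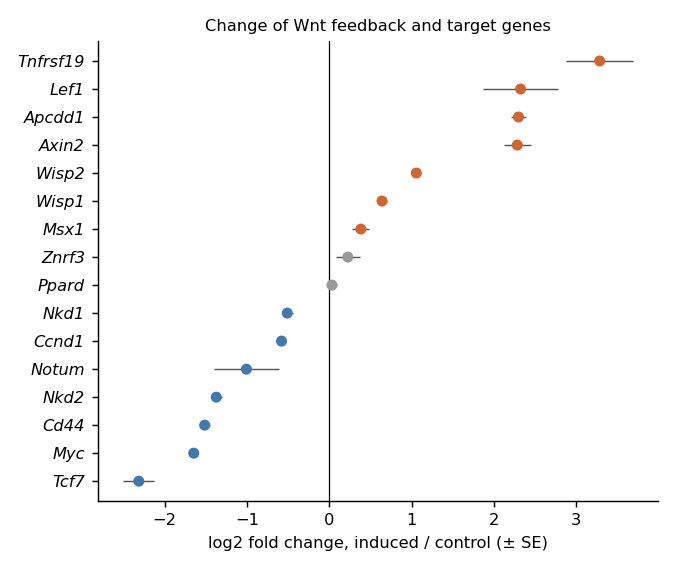
Log2 fold change (induced over control, horizontal axis, ± SE) of Axin2, Lef1, Tcf7 and the 13 tested feedback and target genes. Orange points were called higher, blue points lower and grey points not called at an adjusted p of 0.05. Tnfrsf19, Lef1, Apcdd1 and Axin2 lie above 2, and Tcf7 lies lowest at -2.32.

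Both genes of ligand secretion rose. Wls, the carrier that brings Wnt proteins to the cell surface, rose from 269.7 ± 1.04 to 358.9 ± 10.9 CPM, and Porcn, the enzyme that attaches their lipid, from 6.74 ± 0.869 to 10.3 ± 1.76 CPM (SD, n = 3; log2 fold changes 0.41 and 0.61, adjusted p by edgeR 1.88e-07 and 0.00113). Of 20 genes of cytoplasmic β-catenin control, 3 were higher and 6 lower (45%, under the 64.8% of all tested genes), with a median of -0.05. Ctnnb1, which encodes β-catenin, was at 499 ± 8.24 CPM in control cells and at 470 ± 18.0 CPM after induction (SD, n = 3; log2 fold change -0.09, adjusted p by edgeR 0.0962), and 15.1% of the exonic sequence is shared with another gene. Amer1, a membrane-bound partner of Apc, fell by 1.30 on the log2 scale (adjusted p by edgeR 2.14e-12). Csnk1e, a kinase acting on Dishevelled, fell by 0.69 (adjusted p by edgeR 7.01e-09) and lies on chromosome 15, while Gsk3b rose by 0.39 (adjusted p by edgeR 1.75e-05).

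Of 13 nuclear co-factors, 5 were higher and 5 lower (76.9%, beside 64.8% of all tested genes), with a median of -0.04. Pygo1, a β-catenin co-activator, and Tle4, a co-repressor, had log2 fold changes of 1.79 and 1.18, and the kinase Hipk2 had one of -1.27 (adjusted p by edgeR 2.95e-08, 3.53e-07 and 5.18e-13). Of 16 further extracellular modulators, 10 were tested, 5 were higher and 2 lower (70%, beside the same 64.8%). Of the 5, Lgr6, with 7 reads in control and 50 in induced samples, passed the filter only through the induced samples. Draxin, a secreted antagonist and axon guidance protein, was at 48.0 ± 3.02 CPM in control cells and at 3.01 ± 0.473 CPM after induction (SD, n = 3; log2 fold change -3.99, adjusted p by edgeR 5.51e-16). Tpbg, a membrane glycoprotein that dampens the β-catenin branch, fell by 2.69 on the log2 scale (adjusted p by edgeR 6.69e-13), and 23.5% of the exonic sequence is shared with another gene. Gpc3, a cell-surface proteoglycan, was at 18.0 ± 1.24 CPM in control cells and at 73.1 ± 5.55 CPM after induction (SD, n = 3; log2 fold change 2.02, adjusted p by edgeR 2.19e-14). Sostdc1 had 0 reads in control and 15, 3 and 10 in induced samples and was not tested. Its pooled induced reads were 9.73-fold those of 3 counts summed over the control group, a ratio that leaves out counting error in the induced reads.

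Of 25 genes of the polarity and calcium branch, 23 were tested, 8 were higher and 6 lower. The share called was 60.9%, beside 64.8% of all tested genes, and the median was 0.08. Celsr1, an atypical cadherin of planar polarity on chromosome 15, rose by 2.94 on the log2 scale (adjusted p by edgeR 1.61e-09). Camk2a, a subunit of a calcium-dependent kinase, and Nfatc4, a calcium-regulated transcription factor, fell by 2.37 and 0.92 (adjusted p by edgeR 2.48e-11 and 4.71e-10).

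Total counts were 19343728 to 19823369 in control samples and 19041133 to 19449606 in induced samples. In bulk RNA, a change in the share of expressing cells and a change in RNA per cell cannot be told apart. Of 8 epicardial or mesothelial markers, 8 were above 1 CPM in at least 1 group, 5 were higher and 3 lower, and their summed level was 681 to 710 CPM in control and 2202 to 2276 CPM in induced samples. Most of that sum was Upk3b, with means of 254 and 942 CPM, and Lrrn4, with 283 and 906 CPM, while Tbx18, Krt19 and Aldh1a2 fell by 0.33, 1.24 and 2.50 on the log2 scale. The 6 fibroblast or stromal markers summed to 15494 to 16209 CPM and 17329 to 18551 CPM, with 4 higher and 2 lower. Col1a1 (control and induced means of 7440 and 5786 CPM) and Col1a2 (7683 and 9641 CPM) dominated this sum and moved in opposite directions. It therefore showed little of the scarcer markers. Lum had means of 6.47 and 134 CPM, Dcn 469 and 2138 CPM, Thy1 113 and 164 CPM, and Pdgfra 243 and 147 CPM. The part of either list in the Wnt results was not tested. Of 7 leukocyte markers, 5 had 0 reads in all samples (Ptprc, Cd52, Tyrobp, Itgam and Cd3e), and the list summed to 3.24 to 4.46 CPM and 13.7 to 16.4 CPM through Lyz2. The 7 endothelial markers, with Tie1 at 0 reads, summed to 1.60 to 1.89 CPM and 1.21 to 2.31 CPM. The 9 cardiomyocyte markers summed to 1.60 to 1.89 CPM and 2.55 to 2.89 CPM. Most of the level was Tnni3, which was not called (log2 fold change 0.41, adjusted p by edgeR 0.144). Ryr2 had 1 read in all control samples together and 9, 10 and 10 in the induced samples, and was not tested. Myl2, Myl3 and Actc1 went the other way, with 2, 2 and 6 reads in control and 0, 0 and 4 in induced samples. The 4 neural crest or glial markers, with Sox10 at 0 reads, summed to 1.02 to 1.52 CPM and 1.84 to 2.20 CPM.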

How the data were processed

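RNA of 3 control and 3 induced samples was sequenced, and the authors deposited raw read counts per gene and FPKM values derived from them. The submitters' processing notes name HISAT2 2.0.5, featureCounts 1.5.0-p3, DESeq2 1.16.1 and mm10, without settings, and strand use is not given in the sources used here. Columns with the authors' fold changes, p-values and Gene Ontology results were not used. Of the 51 members, 50 have the coordinates of GENCODE M21 (GRCm38), and coordinates are those of the table.

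Counts were fitted in R 4.3.3 with edgeR 4.0.16 over all genes passing filterByExpr (minimum count 10, minimum total 15), with TMM scaling, two-sided quasi-likelihood F tests and p-values adjusted by Benjamini-Hochberg. Depth was about equal in all samples. CPM values are TMM-scaled. Standard errors were taken as the log2 fold change over the root of F. Within groups, pairs of samples differed beyond sampling noise (chi-square per degree of freedom 2.56 to 8.91).

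The members and lists were chosen with earlier results of these data known. Named genes were members changed at least 2-fold, the 2 most abundant per class, Axin2, Lef1 and Tcf7, and any with reads in 1 group only (at least 10), plus Ctnnb1 and up to 3 genes with the smallest p per pathway list; other genes were named after their values were seen. Alternatives were DESeq2 1.42.0, other scalings and filters, limma 3.58.1 on log2(FPKM + 1) or log2(FPKM + 0.1), a threshold of 0.01, a replicate block and fits without each sample.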

Additional observations from a re-analysis of the deposited data

How the results depend on the processing

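The number of members called higher lay between 15 and 18 under 15 alternatives, against 17, and the number called lower was 10 under each of them. The lowest number came from the stricter filter, which left 31 members to test. It removed Lef1, Wnt10a and Fzd9, so these genes had no value there and the calls of Lef1 and Wnt10a could not be compared. For the other pathway genes the calls ranged from 24 to 30 higher, against 28, and from 21 to 27 lower, against 25. For 52 named genes the alternatives gave 777 values, of which 0 changed sign when called and 0 lost their call, while 3 passed the threshold only there. These were Ctnnb1 under library totals alone (-0.12) and without induced replicate 2 (-0.11), and Lrp6 without induced replicate 1 (0.16); the cause was not tested. A pseudocount of 1 FPKM shrinks changes of scarce genes by construction, with Wnt11 at 1.43 against 4.04. With library totals as the only scaling, the median over tested genes was -0.04. Ratios of summed FPKM ranged from 0.489 to 0.501 for antagonists, 1.42 to 1.52 for ligands and 0.880 to 0.923 for Frizzled receptors.

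Whether same-numbered samples shared a culture or batch is not given in the labels. Their deviations correlated at -0.03, -0.03 and 0.03, and 1 of 6 samples correlated best with its own number. With the replicate block 17 members were called higher and 10 lower, and 27 and 23 of the other pathway genes. The 17 untested members had 25 reads or fewer per group, and 8 of them had 0 reads in all 6 samples. The part of depth in these low counts was not tested.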

Other observations

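Several Wnt genes lie in neighbouring pairs. Wnt6 and Wnt10a lie 6.2 kb apart on chromosome 1. Both rose, but both passed the filter only through the induced samples, so a difference was built into their testing. Wnt9a lies 16.2 kb from Wnt3a on chromosome 11, and Wnt3a had 0 reads in all 6 samples while Wnt9a was the leading ligand of induced cells. Wnt9b and Wnt3, 24.3 kb apart on chromosome 11, had 0 reads. Wnt10b and Wnt1, 11.7 kb apart on chromosome 15, had 8 and 0 reads in control and 6 and 2 in induced samples.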
